A study of Homo sapiens with 2 samples.

Results

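The integrin subunits described here are ITGA2, ITGA3, ITGA5, ITGA6, ITGAV, ITGB1, ITGB4, ITGB5, ITGB6 and ITGB8, taken by gene symbol from the authors' table of detected probes and otherwise, by accession, from the scanner files. Of these 10 genes, 8 had a probe among the 14894 named genes of that table, and ITGB6 and ITGB8 were read from the scanner files alone. RNA came from cells labelled HCT116, a human colorectal carcinoma line of epithelial origin, collected 48 h after Lipofectamine 2000 transfection of a miR-204-5p mimic or of a negative control RNA. Each condition had 1 single-colour Cy3 array and no replicate, so no difference below carries a replicate error, a test or a p-value, and each describes these 2 arrays.

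Integrins are transmembrane heterodimers of an α and a β chain that join the extracellular matrix to the cytoskeleton. The α chain largely sets the ligand: α3, α6 and α7 bind laminins, α1, α2, α10 and α11 carry an inserted domain that binds collagens, and α5, αv, α8 and αIIb read the RGD motif of fibronectin, vitronectin and similar proteins. β1 pairs with many α chains, β4 pairs with α6 in the hemidesmosomes that anchor epithelial cells to the basement membrane, and β5, β6 and β8 pair with αv, the latter pair being known activators of latent TGF-beta.

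The agent of the treatment is a synthetic copy of the mature microRNA shown here from RefSeq (GRCh38.p14, chr9:70810031-70810052, minus strand), with the seed, bases 2 to 8 from the 5′ end, in capitals. Target sites in the subunits' mRNAs were not searched here.
hsa-miR-204-5p: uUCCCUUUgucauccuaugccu

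Values are given as scaled intensities, for which each array was divided by the 75th percentile of its own probes and returned to a common linear scale. Differences are log2 values, mimic minus control, and a gene was called at a 2-fold difference. Before scaling the percentile stood at 1364 for the mimic and 894 for the control, and the median of 153 negative-control spots at 5.59 and 3.60. For 1366 of the table's 20291 probes the deposited mimic signal was exactly the product of the control signal and the deposited fold, to a relative tolerance of 1e-06. Such probes are named recomputed here, and their mimic value is not a separate measurement. Among the 10 subunits this applied to ITGA2 alone. Of the mimic array's spot values 95.5% were 1.2 times a number of 7 significant digits, the ITGA2 spot not being among them. A factor common to an array cancels in the scaling only for values that carry it, and whether one applies to the recomputed values was not tested. The scaled differences of recomputed probes add the percentile scaling to the deposited fold.

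The labelled cell line was checked against markers of its lineage, and the arrays differed widely in them. Of 14 measured epithelial markers 10 were higher by 2-fold or more in the mimic sample and 0 lower (14.0% and 14.3% of all genes). Their summed intensities were 271938 (mimic) and 46447 (control). The 4 within 2-fold were KRT18, at a difference of 0.98, and CDX1, KRT20 and GRHL2, at -0.44, -0.48 and -0.50. CDH1, the adherens junction cadherin of epithelia, was 11324 with the mimic and 36.6 with the control, 8.24 times the negative-control median there. CDX2, an intestinal transcription factor outside the table, was 1255 against 5.14, at background on the control array, and the intestinal markers VIL1 and CDH17 were near background on both arrays. Of 10 measured mesenchymal markers 8 were lower and 2, S100A4 and COL1A1, higher (14.3% and 14.0% of all genes). Of the 8 lower ones, 6 had a recomputed probe. Their sum was 31537 against 195408 over the 10 markers. VIM, from a recomputed probe, made up most of the control sum, at 1279 against 163211. S100A4 made up most of the mimic sum, at 27247 against 2473. Outside the table, the mesenchymal marker FBN1 was 4.65 against 1152, LOX 11.1 against 1077, ZEB2 11.3 against 53.5 and THY1 13.2 against 44.4. COL3A1 (18.9 against 20.8) and TWIST1 (12.5 against 9.68) were dim on both arrays. No deposited fold is listed for these genes, so whether their mimic values are recomputed could not be checked. Over all genes the shares beside the next counts are again 14.0% higher and 14.3% lower. Blood markers (1 of 6 higher, 1 lower, sums of 6701 and 5559) and endothelial markers (0 of 4 past 2-fold, sums of 625 and 871) differed less within the table. Outside it, the blood marker ITGB2 was 8.60 against 487, and the endothelial markers PECAM1 and TEK were 6.66 against 51.6 and 4.75 against 46.6. Epithelial and mesenchymal markers thus differ between the same 2 arrays as the integrin subunits below. The part of such cell differences in the integrin values was not tested. With 1 array each, the mimic and any other difference between the cells cannot be told apart.

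The integrin subunits differed in both directions. ITGA2, ITGAV and ITGA5 were lower on the mimic array by 3.55-fold, 2.85-fold and 2.39-fold, while ITGB4 was 2.47-fold higher. ITGA3, ITGB5, ITGA6 and ITGB1 were higher by less than 2-fold. Among the 8 subunits of the table, 1 was thus called higher, against 14.0% of all 14894 genes, and 3 were called lower, against 14.3% of all genes. Of the 2128 genes called lower, 1132 had a recomputed probe, out of 1177 genes with such a probe. Leaving these probes out therefore removes mostly lower genes, and the shares that follow are tied to direction. Without such probes 1 of 7 subunits was higher, against 15.0% of 13948 genes, and 2 were lower (ITGAV and ITGA5), against 7.62%. At 1.5-fold, 4 subunits were higher (23.5% of all genes) and 3 were lower (24.7% of all genes). The median difference was 0.64 over the 8 subunits and -0.05 over all genes. The 5 α subunits had a median of -1.26, and the 3 measured β subunits one of 0.83.

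**Figure D1:**
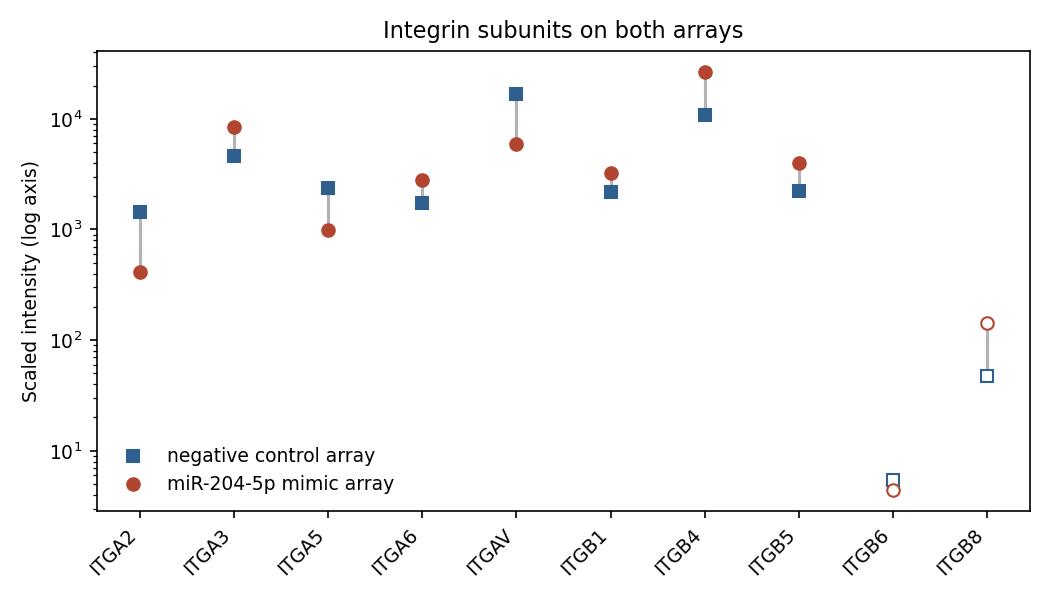
Scaled intensity (log axis) of the 10 integrin subunits on the negative control array (squares) and the miR-204-5p mimic array (circles), with open symbols for genes outside the authors' table. ITGA2, ITGA5 and ITGAV sit lower on the mimic array and ITGA3, ITGA6, ITGB1, ITGB4, ITGB5 and ITGB8 higher, while ITGB6 lies at background on both.

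Of the laminin receptor chains ITGB4, ITGA6 and ITGA3, only ITGB4 passed the 2-fold threshold. ITGB4, the hemidesmosomal β chain with its long cytoplasmic tail, had scaled intensities of 26664 (mimic) and 10802 (control), a log2 difference of 1.30, and 9.33% of genes had a larger positive difference. Its partner ITGA6 was read by 2 probes. One gave 14312 against 10409 (a difference of 0.46) and the other 558 against 284 (0.98), so the probes shared a direction and the gene's mean difference was 0.72, or 1.64-fold. ITGA3, the α chain of the laminin receptor α3β1, was 8364 against 4571, a difference of 0.87 or 1.83-fold. Both α chains were within the 2-fold threshold.

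The collagen receptor chain ITGA2 stood lowest of the 8. Its intensity was 410 with the mimic and 1453 with the control, a difference of -1.83, and 94.5% of genes had a higher difference. This mimic value is recomputed. The fold itself is 0.431 in the authors' deposited table, or 2.32-fold lower, and dividing by the percentiles lowers it by another 0.61 on the log2 scale. That deposited fold matches the authors' normalized log2 values, 9.23 (mimic) and 10.4 (control), a difference of -1.22. The 3.55-fold value thus adds the percentile scaling to a fold already taken after the authors' normalization. The ITGA2 probe lies on chromosome 5 between 52389637 and 52389696 by the authors' deposited table, on a build not given in the sources used here. Which exon or UTR the probe covers is not stated there.

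The RGD receptor chains were lower as well, from probes that were not recomputed. ITGAV, the α chain shared by β5, β6 and β8, was spotted 10 times on each array. Its spots ran from 5679 to 6193 on the mimic array, with a median of 5962, and from 15946 to 17549 on the control array, with a median of 17131. The spot ranges did not overlap. The mean difference was -1.51 ± 0.04 (SD over 10 spots, which share 1 RNA sample and measure technical spread only), and 92.4% of genes had a higher difference. ITGA5, which forms the fibronectin receptor α5β1 with ITGB1, was 995 with the mimic and 2379 with the control, a difference of -1.26. Both genes carry the mark Up in the authors' deposited table although the folds listed there are 0.573 for ITGAV and 0.630 for ITGA5, so that mark does not give their direction.

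The β chains ITGB1 and ITGB5 were within the 2-fold threshold. ITGB1, the common partner of α2, α3, α5 and α6, had 10 spots between 3122 and 3372 on the mimic array (median 3227) and between 2051 and 2294 on the control array (median 2169). These ranges did not overlap either, and the mean difference was 0.57 ± 0.04 (SD, 10 spots) or 1.48-fold. The authors' deposited table describes the ITGB1 probe as one for transcript variant 1E. ITGB5, which pairs with αv in a vitronectin receptor, was 3987 against 2238, a difference of 0.83 or 1.78-fold.

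**Figure D2:**
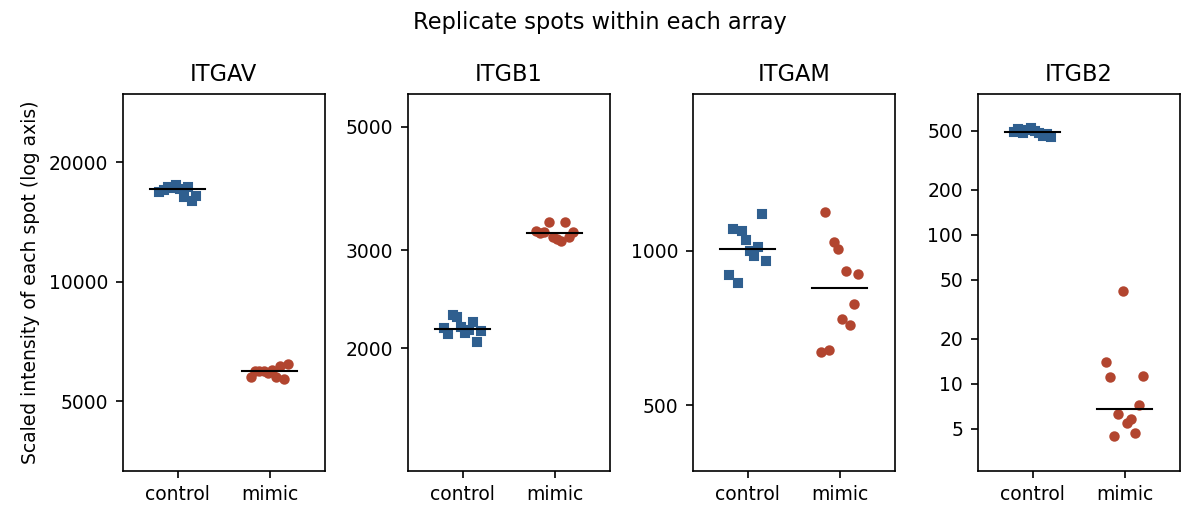
Scaled intensity (log axis) of each of 10 spots per array for 4 integrin genes spotted repeatedly, with the median as a black line. Spots of ITGAV, ITGB1 and ITGB2 form separate bands on the control and mimic arrays, whereas those of ITGAM overlap.

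The αv partners known to activate TGF-beta were outside the table. ITGB8 had scaled intensities of 142 (mimic) and 47.4 (control), a difference of 1.58 or 2.99-fold. These signals were 31.4 and 10.7 times the negative-control medians, and its absence from the table says only that detection was not called in all 5 samples the table covers. ITGB6, an epithelial subunit, stood at 4.39 and 5.44, which is 0.97 and 1.22 times those medians, so no fold is given. Of the latent TGF-beta genes and their carriers, 1 of 7 measured was higher and 2 were lower (14.0% and 14.3% of all genes), with a median of -0.23. LTBP1, a matrix protein that tethers latent TGF-beta, was 145 against 1309 from recomputed probes, and NRROS, a membrane tether of latent TGF-beta, 40.7 against 139, also recomputed. LTBP3, another carrier of the same family, was 1668 against 528 or 3.16-fold higher. TGFB1 itself differed by -0.57.

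**Figure D3:**
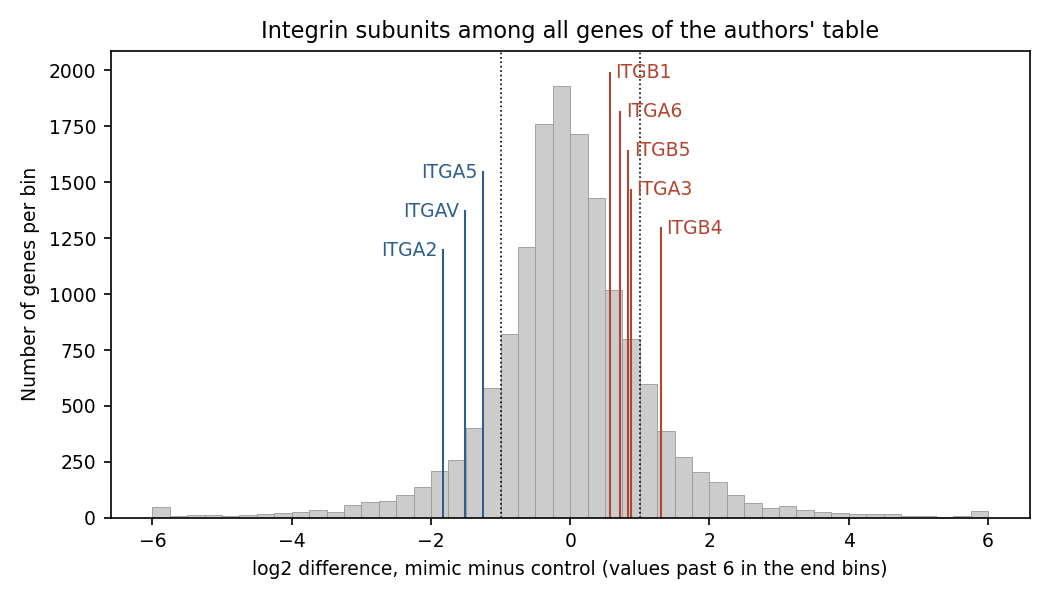
Number of genes per bin of 0.25 log2 difference (mimic minus control) over the 14894 genes of the authors' table, with lines at the 8 integrin subunits it holds and dotted lines at 2-fold. ITGA2, ITGAV and ITGA5 lie left of the lower dotted line, ITGB4 lies right of the upper one, and the other 4 lie between 0.57 and 0.87.

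Promoters are printed from RefSeq (GRCh38.p14), each the 250 bases before the outermost listed start, for a pair of lower subunits (ITGA2 and ITGA5) and a pair of higher ones (ITGB1 and ITGB8), chosen after their values were seen. The windows are chr5:52989102-52989351 on the plus strand (ITGA2), chr12:54419267-54419516 on the minus strand (ITGA5), chr10:32958231-32958480 on the minus strand (ITGB1) and chr7:20330650-20330899 on the plus strand (ITGB8). Capitals mark GC boxes, the letters GGGCGG on either strand, which Sp-family factors are known to bind.
ITGA2: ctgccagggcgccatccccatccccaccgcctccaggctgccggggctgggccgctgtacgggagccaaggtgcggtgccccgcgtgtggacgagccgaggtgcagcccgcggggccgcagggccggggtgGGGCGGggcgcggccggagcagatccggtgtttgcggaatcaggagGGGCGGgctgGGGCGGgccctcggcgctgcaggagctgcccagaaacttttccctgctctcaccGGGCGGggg
ITGA5: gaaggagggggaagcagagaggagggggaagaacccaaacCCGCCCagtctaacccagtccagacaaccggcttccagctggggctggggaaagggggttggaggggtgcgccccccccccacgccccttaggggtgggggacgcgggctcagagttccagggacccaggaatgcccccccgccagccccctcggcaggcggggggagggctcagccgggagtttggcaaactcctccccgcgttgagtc
ITGB1: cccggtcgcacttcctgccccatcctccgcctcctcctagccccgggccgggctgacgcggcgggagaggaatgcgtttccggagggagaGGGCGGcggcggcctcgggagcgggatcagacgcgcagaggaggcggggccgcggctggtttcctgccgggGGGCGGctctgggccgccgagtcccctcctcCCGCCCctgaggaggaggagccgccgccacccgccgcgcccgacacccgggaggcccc
ITGB8: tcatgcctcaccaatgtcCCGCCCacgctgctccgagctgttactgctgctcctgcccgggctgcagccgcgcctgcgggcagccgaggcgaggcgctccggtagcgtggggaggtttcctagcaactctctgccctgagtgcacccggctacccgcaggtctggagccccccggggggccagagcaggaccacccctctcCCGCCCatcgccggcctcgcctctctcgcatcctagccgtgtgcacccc

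The ITGA2 window held 4 GC boxes, that of ITGB1 3, that of ITGB8 2 and that of ITGA5 1, so both higher and lower subunits carried them. Promoter sequence was found for 8 of the 10 subunits, without ITGA3 and ITGB4. Counts here are for the outermost window of each. ITGA6, ITGAV, ITGB1 and ITGB5 also have windows at other starts, and motifs absent from the outermost one lay there for 3 of them: ITGA6 had a GC box, ITGB5 an E-box and ITGB1 a TATA box. A GC box lay in 5 of the 8 outermost windows, not in that of ITGAV, and in 42.6% of all 35116 windows of the same length. An E-box (CAGGTG on either strand) lay in the windows of ITGA6 and ITGB6, and in 17.5% of all windows. A TATA box (TATAAA on either strand) lay in that of ITGA6, and in 10.7% of all windows. The AP-1 element TGANTCA was in 0 of the 8 and of their other windows, and in 6.57% of all windows. No match overlapped another kind of match in the 8 outermost windows, and a match is a description of these letters only.

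The other integrin genes complete the family of 18 α and 8 β chains. Of 16 further subunits 9 were in the table, with a median difference of -0.09, 1 called higher and 1 called lower (14.0% and 14.3% of all genes). ITGA7, the remaining laminin-binding α chain, was 1228 against 438 or 2.80-fold higher. Thus 3 of 3 laminin-binding α chains had positive differences, from 0.72 to 1.49, against a median of -0.05 over all genes. Only 1 of the 3, ITGA7, was past 2-fold, against 14.0% of all genes called higher. ITGA1, a collagen-binding α chain, was 41.0 against 599 from a recomputed probe, or 14.6-fold lower, and the folds in the authors' deposited table for ITGA1 and ITGA2 are 0.104 and 0.431. The other collagen-binding chains, ITGA10 and ITGA11, differed by 0.55 and -0.46. ITGA2B, the platelet RGD-binding chain, differed by -0.06, and ITGA9, ITGAE and ITGB7 by -0.32, 0.16 and -0.09. This grouping by ligand follows the standard classes and was drawn up with the values known.

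ITGAM, a myeloid α chain with 10 spots, ran from 634 to 1192 on the mimic array (median 846) and from 864 to 1180 on the control array (median 1008). Its spot ranges overlapped, and the mean difference of -0.27 ± 0.25 (SD, 10 spots) was near the spread between spots. ITGB2, the leukocyte β chain and outside the table, had 10 spots from 4.45 to 42.2 on the mimic array (median 6.73) and from 452 to 521 on the control array (median 488). Its spots did not overlap. Against the dimmest table probe that was not recomputed, 14.0 on the mimic array, the mean ITGB2 signal was at least 34.8-fold lower there. This bound is for the mean over spots, since the brightest mimic spot, 42.2, gave a smaller difference of -3.63. Its partner ITGAL was at background on both arrays (4.25 and 4.22), and the pan-leukocyte marker PTPRC was 105 against 143. Among the 9 family members outside the table, 6 stayed under 10 times the negative-control median on both arrays, among them ITGA4, ITGA8, ITGAD and ITGB3.

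**Figure D4:**
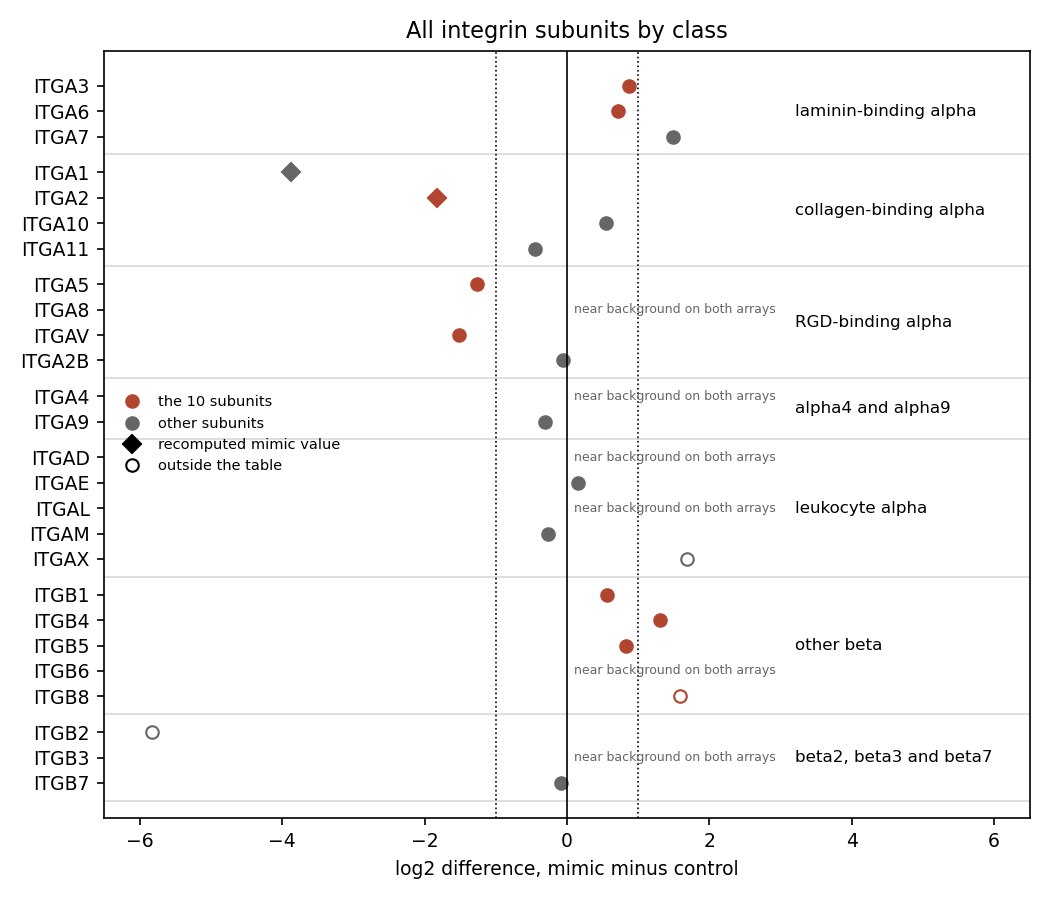
Log2 difference (mimic minus control) of the 26 integrin subunits by class, with no point for the 6 near background on both arrays (ITGB3 among them), with diamonds for recomputed mimic values, open circles for genes outside the authors' table (ITGB2 at its measured -5.82, with a mimic signal near background) and dotted lines at 2-fold. Of the subunits drawn, the 3 laminin-binding α chains lie right of 0, while ITGA1, ITGA2, ITGA5, ITGAV and ITGB2 lie left of the lower dotted line.

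Integrin ligands and hemidesmosome components were measured too. Of 12 measured laminin and hemidesmosome genes 2 were higher and 4 lower (14.0% and 14.3% of all genes), with a median of -0.14. LAMA3, the α chain of laminin-332, was 17.3-fold higher (3036 against 176). LAMA2, the α chain of muscle and nerve laminin, was 2.78-fold higher. LAMC1, the common laminin γ chain, was 2.49-fold lower, and DST, which includes the hemidesmosomal plakin BPAG1, was 2.45-fold lower as a mean of 3 probes of which 1 is recomputed. Of 17 RGD and collagen ligands 3 were higher and 8 lower (14.0% and 14.3% of all genes), with a median of -0.61. All 8 lower genes had a recomputed probe, including the matrix genes CCN1, CCN2, COL4A2 and TGFBI. These 4 were between 51.0-fold (CCN1) and 41.6-fold (TGFBI) lower here. By the authors' deposited folds, before the percentile scaling, they were between 33.4-fold (CCN1) and 27.2-fold (TGFBI) lower. Among the 3 higher ligands the largest difference was 3.33, and COL1A1 was 6.48-fold higher (487 against 75.3). Outside the table, the ligand FBN1 was 4.65 against 1152 and COL3A1 18.9 against 20.8.

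Inside the cell, 36 integrin activators, inhibitors and focal adhesion proteins were measured. Of these 3 were higher and 8 lower (14.0% and 14.3% of all genes), with a median of -0.37, and 3 of the 8 were recomputed. FERMT2 (kindlin-2), which binds β tails and helps to activate integrins, was 935 against 8837, and DAB2, an endocytic adaptor for β tails, was 689 against 3449. TNS3, a tensin of fibrillar adhesions, was 3.38-fold lower. These FERMT2, DAB2 and TNS3 values are recomputed, and the deposited folds are 3.28-fold lower for DAB2 and 2.22-fold lower for TNS3. RAP1B, a small GTPase upstream of talin, was 2.89-fold lower (20462 against 59178) from 2 probes that agree within 0.03 log2 and are not recomputed.

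Of 17 membrane partners 4 were higher and 3 lower (14.0% and 14.3% of all genes), with a median of -0.09. NRP1, a co-receptor that associates with integrins, was 6.99-fold lower from recomputed probes. CAV2, a caveolin, was 3.04-fold higher, and LGALS3BP, a secreted glycoprotein that binds β1 integrins, 2.65-fold higher. EGFR was 2.56-fold lower as a mean of 2 probes at -1.92 and -0.79, of which 1 is recomputed. Of 15 integrin trafficking genes 3 were higher and 3 lower (14.0% and 14.3% of all genes), with a median of -0.46. RAB4A, a GTPase of rapid recycling, was 4.39-fold higher (819 against 186). RAB5A, a GTPase of early endosomes, was 2.68-fold lower and not recomputed. EHD1, a recycling ATPase, and MYO10, a filopodial motor that carries β chains, were 4.26-fold and 3.23-fold lower from recomputed probes. By the deposited folds these 2 were 2.79-fold and 2.11-fold lower.

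Each of the 8 subunits kept its direction under every alternative that measured it (ITGA2 has no value without recomputed probes), but the number called changed. Alternatives that only select probes could not move a subunit with 1 table probe. With the authors' deposited normalized values ITGA3 stood at 1.59, ITGA6 at 1.35 and ITGB1 at 1.25, and ITGB5 is listed at 2.82-fold in the authors' deposited table, all past 2-fold, while ITGAV (-0.80) and ITGA5 (-0.67) were within it. That source gave 5 subunits called higher and 1 lower. Over all genes it called 4606 higher and 1017 lower, of which 81.9% were higher, against 2080 and 2128 (49.4% higher) here, and its median over all genes was 0.58. Relative to the median of all genes, the subunits' median was 0.71 by the deposited values and 0.70 here. The difference between the ITGA6 probes, and the median gap of 0.48 between the probes of 2514 genes with 2 probes, mark the spread that a change of probe brings.

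**Figure D5:**
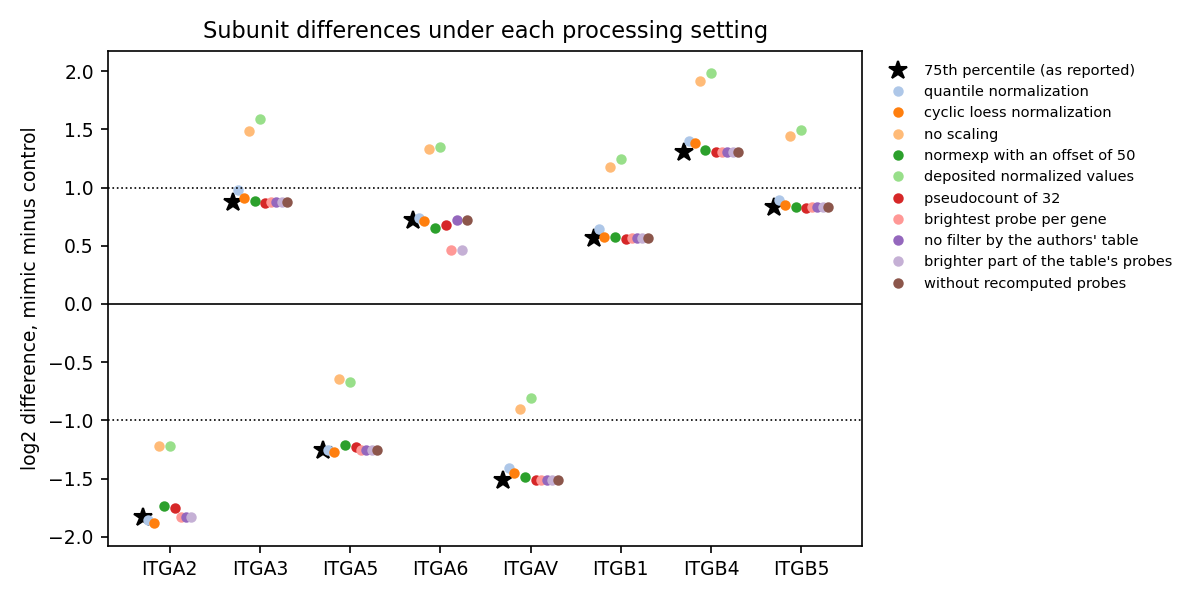
Log2 difference (mimic minus control) of the 8 table subunits under the reported scaling (star) and each alternative (points), with dotted lines at 2-fold. Every subunit stays on 1 side of 0, and the deposited normalized values and the unscaled values lie above the rest for all 8.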

How the data were processed

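Total RNA was labelled with Cy3 and hybridised to 1 Agilent single-colour array per condition, per the labels' protocols. The submitters' processing notes name Agilent Feature Extraction 9.1 as the scanner software. Neither the normalization method nor the genome build was given in the sources used here.

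Scanner files as deposited hold 1 linear intensity for each of 44495 spots, not normalized between arrays. The authors' deposited table gives raw intensity, log2 normalized intensity and the mimic-to-control fold as a linear ratio, for probes detected in 5 of 5 samples, per the file headers. Of those samples 3 are not analysed here. The deposited log2 series table equals its normalized columns within 0.005, with medians of 9.81 (mimic) and 9.21 (control).

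Here log2 intensities were averaged over a probe's spots, each array's 75th percentile over 34127 non-control probes was subtracted, and a gene was the mean of its table probes. Symbols came from RefSeq on GRCh38.p14, by Entrez identifier for 17578 probes, and 1995 probes stayed unnamed. The calculation was tested on simulated data. Alternatives used limma 3.58.1 in R 4.3.3, with the rest in Python 3.11.15. The members, lists and settings were chosen with earlier results of these data known. Named genes were the members and, in each list, the 4 largest differences. The other integrins, the markers and members of classes were named after their values were seen. No gene was named by likeness of pattern, since 2 arrays give 1 difference per gene. The number of arrays limits the precision.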

Additional observations from a re-analysis of the deposited data

Results flagged for a closer look

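A signal outside the authors' table, above that of the control array, was seen for 2 integrin genes. ITGB8 had a scaled intensity of 142 on the mimic array against 47.4 on the control array, and ITGAX, a myeloid α chain, 63.7 against 19.9. Each rests on 1 spot per array, and the differences of 1.58 and 1.68 log2 were not tested.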

How the results depend on the processing

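With no scaling, 5 subunits were called higher, 1 lower, and their median was 1.25. The deposited normalized values gave 5, 1 and 1.30. The higher median of all genes (0.56 and 0.58) in both shows that the offset between the arrays is kept there. With all probes of the arrays, 2 subunits were higher and 6414 genes were past 2-fold, and among brighter probes 2346 genes were, since more or fewer genes were counted. A threshold of 1.5-fold gave 4 higher subunits and 7188 genes, and one of 3-fold gave 0 higher subunits, 1 lower and 2056 genes. Without recomputed probes ITGA2 dropped out, leaving 2 lower subunits of 7, and 66.3% of the genes past 2-fold were higher. Most genes with a recomputed probe were called lower (1132 of 1177), so this share is tied to their removal. Of 79 values of single subunits under the alternatives, 63 moved by less than the 0.48 gap between probes of a gene and 16 by more. The 16 all came with no scaling or the deposited values, and 0 of the 79 changed sign. Part of the 63 could not move, since settings that only select probes return the same value for a subunit with 1 table probe. Those values say nothing about stability. No paired analysis was possible because each group has 1 array. Signals near the negative-control medians, as for ITGB6, carry no order.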
